A study of Mus musculus with 15 samples.

Results

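CD157+CD200+ and CD157-CD200- cells are the opposite ends of an antibody sort of endothelial cells from adult mouse liver, and they are compared here on 3 arrays each, 6 of the 15 arrays in the study. The arrays were taken by their titles. CD157+CD200+ cells carried both surface proteins and CD157-CD200- cells carried neither. The CD157-CD200+ subset of the same sort (3 arrays) carried CD200 alone and is given beside the ends for orientation. The remaining 6 arrays hold endothelial cells sorted in another way, labelled EC-SP and EC-MP. The titles of these 6 all give the same age in weeks, while those of the subsets give none. The labels name liver as the tissue and endothelial cell as the cell type, and describe the samples as independent, but they give no strain, sex, treatment or exact age for the subsets. They do not say whether each array stands for a separate animal, so each p-value covers the spread of the arrays alone, and that spread may be technical. The sort defines the groups by 2 antibodies, so each group is a mixture of every liver cell that passed the endothelial gate with that staining. In such bulk samples a lower level can mean fewer cells of a type or less RNA per cell, and these cannot be told apart.

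Endothelium of the liver comes in several kinds. Liver sinusoidal endothelial cells line the capillary-like sinusoids. They are fenestrated, lack a continuous basement membrane, and clear glycoproteins, hyaluronan and immune complexes from the blood through scavenger receptors. Portal veins, hepatic arteries and central veins are lined by continuous endothelium, which stores von Willebrand factor and sits on an elastic and collagenous wall. CD157, encoded by Bst1, is a membrane-anchored ectoenzyme that acts on NAD and was first described on bone marrow stromal cells. CD200 is a membrane glycoprotein of the immunoglobulin superfamily whose receptor restrains myeloid cells. The study asked by which surface markers endothelial stem cells of the liver can be recognised.

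All levels are log2 signals relative to the 75th percentile of the same array, so that 0 stands for a probe as bright as that percentile. Differences are CD157+CD200+ minus CD157-CD200- on the log2 scale, with the standard error of limma's fit and n = 3 arrays per group. A feature counted as called, higher or lower, if its p adjusted by Benjamini and Hochberg's method over the whole array was under 0.05. A value in brackets after a gene is such a difference with its standard error. Measured means well above background by the image software. If every array of a group lacked this, the fold is a lower bound, set against the lowest signal that was well above background in that group.

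The sort was plain in the RNA. Cd200 had levels of 4.49, 4.46 and 4.32 in CD157+CD200+ and -4.27, -4.43 and -4.56 in CD157-CD200-, where no array was well above background, so that it was at least 320-fold higher (adjusted p = 7.8e-09). Bst1 had levels of 2.45, 2.48 and 2.77 in CD157+CD200+ and -3.62, -3.16 and -2.73 in CD157-CD200-, and 2 of the 3 CD157-CD200- arrays measured it well above background. The groups did not overlap for either antigen, which held for 29.3% of the 23701 features tested. The Bst1 difference of 5.73 ± 0.25 (adjusted p = 5.5e-07) lay within 5.49 to 6.07 in the 3 same-numbered pairs. Von Willebrand factor, Vwf, the stored adhesive protein of large vessels, stood at 7.95, 7.84 and 8.04 in CD157+CD200+ and 0.44, -0.62 and 0.41 in CD157-CD200-. Stab2, a hyaluronan receptor of sinusoids, ran the other way, with -0.25, -0.31 and -0.58 in CD157+CD200+ and 6.89, 6.74 and 6.45 in CD157-CD200-. The general endothelial genes were present at both ends: Pecam1, the junctional adhesion molecule CD31, had levels of 5.58, 5.76 and 5.76 in CD157+CD200+ and 4.49, 4.57 and 4.78 in CD157-CD200-, and VE-cadherin, Cdh5, had 5.45, 5.46 and 5.04 in CD157+CD200+ and 5.74, 5.37 and 5.32 in CD157-CD200-. Pecam1 was higher in CD157+CD200+ (1.09 ± 0.17, adjusted p = 0.0015), while Cdh5 (-0.16 ± 0.22, adjusted p = 0.75) did not pass the test. The leukocyte antigen Ptprc was measured on all 6 arrays and did not pass the test (-0.20 ± 0.42, adjusted p = 0.86). Against their defining markers, then, both ends read as endothelium, CD157-CD200- with the sinusoidal marker and CD157+CD200+ with the large-vessel marker.

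**Figure D1:**
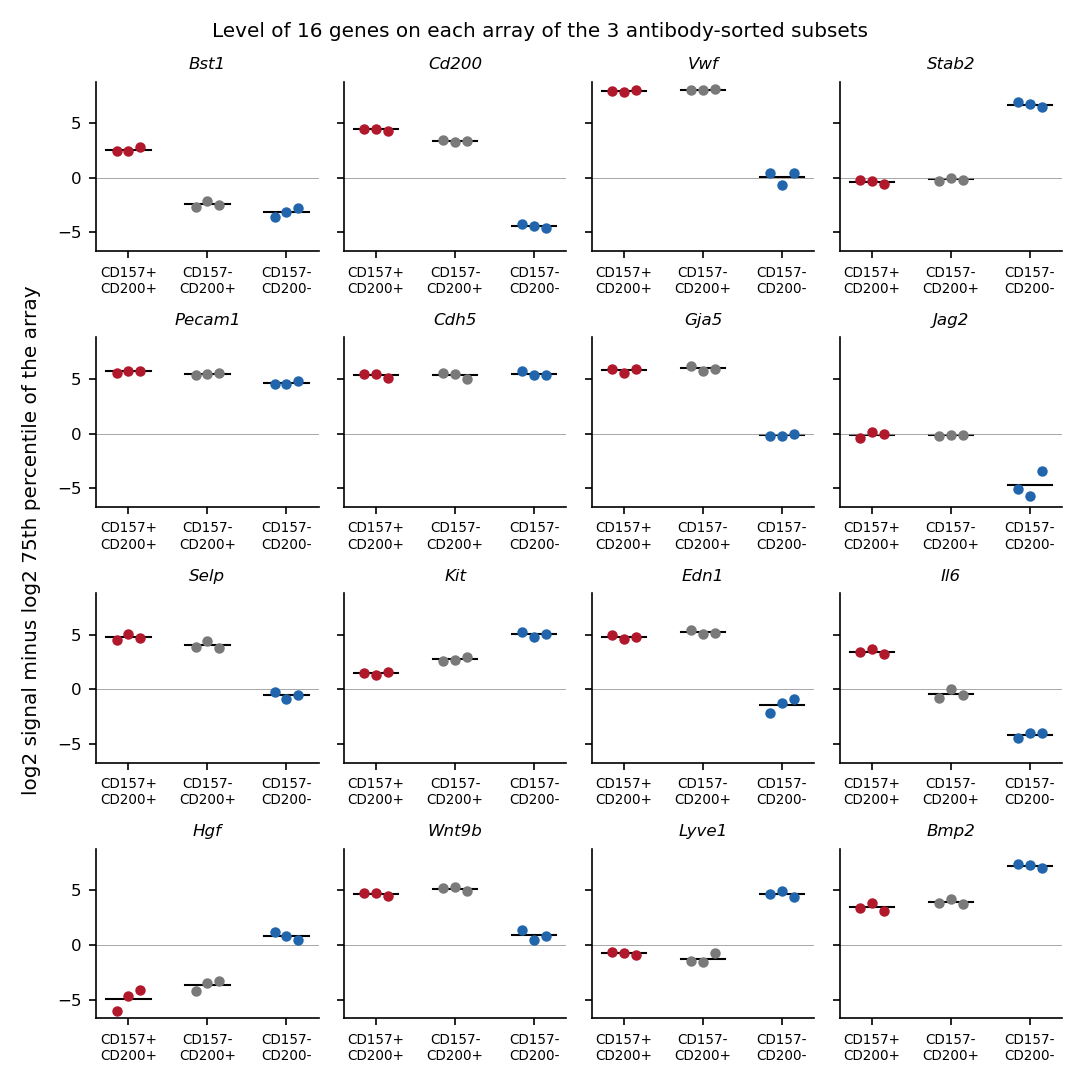
Level of 16 genes on each array of the 3 antibody-sorted subsets. The vertical axis is the log2 signal minus the log2 75th percentile of the array, each point is an array and each black line the mean of 3. Bst1 is high only in CD157+CD200+ (2.45 to 2.77), Cd200, Vwf and Gja5 are high in both CD200-positive subsets, Stab2, Lyve1 and Hgf are high in CD157-CD200-, and Cdh5 is level across the subsets.

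The regions just before the start sites of 4 genes with large and opposite differences are shown to give the sequence context of each end of the sort. Each is 250 bases, 5′ to 3′, ending at the base before the RefSeq transcription start (build GRCm38.p6). Capitals mark letters of 5 motifs searched on both strands: GATAA for GATA factors, AGGAAG for ETS factors, AACAAT for SOX factors, TGCTGA for the MAF half-site and TGGGAA for RBPJ, the Notch effector. Cd200 and the arterial connexin gene Gja5 were higher in CD157+CD200+, and Stab2 and the disintegrin gene Adam23 were lower.
Cd200 (chr16:45409054-45409303, minus strand): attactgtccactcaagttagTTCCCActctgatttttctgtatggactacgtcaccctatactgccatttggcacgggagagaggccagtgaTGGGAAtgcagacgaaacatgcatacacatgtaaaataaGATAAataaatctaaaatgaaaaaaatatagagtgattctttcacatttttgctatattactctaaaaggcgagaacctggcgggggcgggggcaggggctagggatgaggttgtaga
Gja5 (chr3:97032152-97032401, plus strand): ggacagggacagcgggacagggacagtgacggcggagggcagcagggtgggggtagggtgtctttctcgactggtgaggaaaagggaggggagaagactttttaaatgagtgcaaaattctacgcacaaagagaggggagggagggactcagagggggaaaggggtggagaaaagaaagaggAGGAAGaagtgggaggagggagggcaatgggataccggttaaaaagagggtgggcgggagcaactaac
Stab2 (chr10:87007943-87008192, minus strand): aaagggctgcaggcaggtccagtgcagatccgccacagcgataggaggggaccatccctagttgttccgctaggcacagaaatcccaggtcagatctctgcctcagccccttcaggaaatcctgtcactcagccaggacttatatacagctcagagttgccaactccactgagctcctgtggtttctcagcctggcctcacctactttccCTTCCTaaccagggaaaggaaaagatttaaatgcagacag
Adam23 (chr1:63445641-63445890, plus strand): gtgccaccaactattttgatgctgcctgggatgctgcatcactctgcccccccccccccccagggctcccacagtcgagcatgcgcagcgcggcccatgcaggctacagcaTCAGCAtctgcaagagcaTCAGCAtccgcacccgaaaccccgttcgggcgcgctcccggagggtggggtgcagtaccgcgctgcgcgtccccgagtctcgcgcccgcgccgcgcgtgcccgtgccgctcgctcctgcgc
The Cd200 region holds the GATA letters 118 bases before the start and the RBPJ letters at 157 and 229 bases. The Gja5 region holds the ETS letters 68 bases before the start and that of Stab2 holds them at 40 bases, so this motif stands on both sides of the comparison. Adam23 holds the MAF half-site at 121 and 139 bases. Of 32851 RefSeq regions of the same length, 29.5% hold the ETS letters, 22.6% the GATA letters, 21.6% the RBPJ letters, 16.1% the MAF half-site and 9.4% the SOX letters, on either strand. With shares of this size, a match is a description of the window. The regions differ in base composition: Adam23 had 27 CpG pairs and a GC content of 70.4%, against 6 pairs and 42.4% in Cd200, 7 and 56.4% in Gja5, and 3 and 53.2% in Stab2. The median over all regions was 6 pairs and 52.4%.

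Of 23701 features tested, 3601 passed (15.2%), 1917 of them higher in CD157+CD200+ (8.09%) and 1684 lower (7.11%). Arrays with the same replicate number share a slide and a scan, and with the number as a block 6938 features were called (29.3%), 3649 higher (15.4%) and 3289 lower (13.9%). Features with a gene symbol were called more often, 10.2% of 14363 higher and 8.95% lower. By the fitted values 738 features were higher by at least 2 on the log2 scale and 400 lower, and at least 6 was reached by 45 and 6. These counts take the fitted value also where only a bound holds, so they depend in part on signals near background. With only probes well above background on all 6 arrays, 48.1% of the calls were higher, against 53.2% in the main fit. For 295 of the features called higher no CD157-CD200- array was well above background, and for 92 of those called lower no CD157+CD200+ array was. The arrays were of similar quality: 57.3% to 66.7% of spots were well above background, the 75th percentile lay between 157 and 188 intensity units on the 6 arrays, and replicates correlated across probes at r = 0.959 to 0.972. The number of arrays limits the precision of every value.

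**Figure D2:**
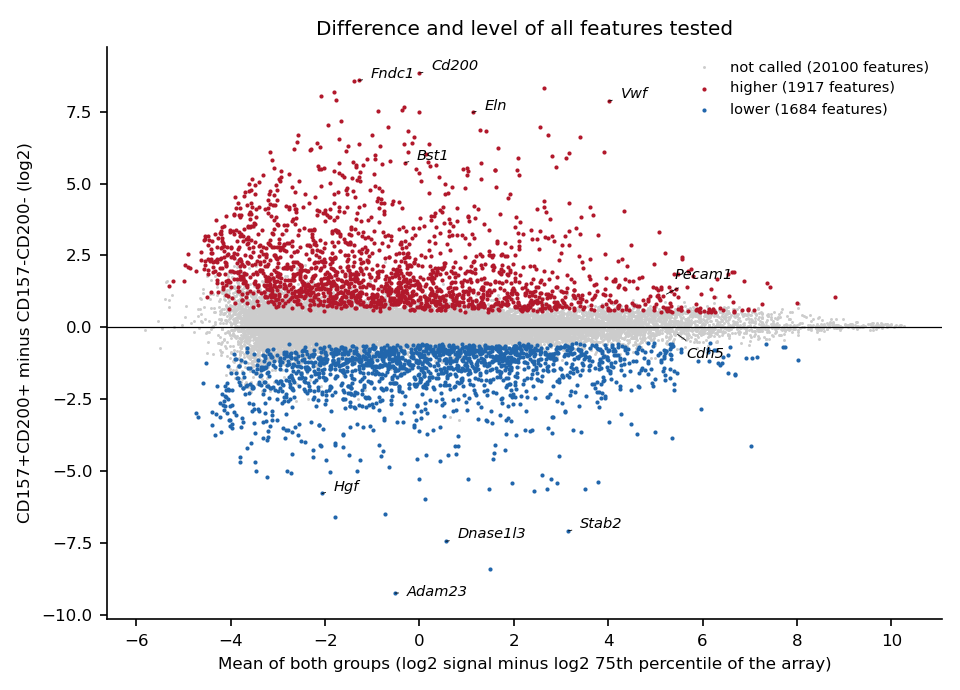
Difference between CD157+CD200+ and CD157-CD200- against the mean level of both groups, for all features tested. Both axes are on the log2 scale, each point is a feature, red points are the 1917 features higher in CD157+CD200+ and blue points the 1684 lower. Named genes include Cd200 and Fndc1 at the top, Adam23, Dnase1l3 and Stab2 at the bottom, and Cdh5 near 0.

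Among the largest differences towards CD157+CD200+ were membrane and secreted proteins of very different kinds. Emp1, a tetraspan membrane protein, had levels of 6.89, 6.57 and 6.91 in CD157+CD200+ and -1.12, -2.45 and -1.02 in CD157-CD200-, a 319-fold difference. Elastin, Eln, the rubber-like protein of vessel walls, had 4.78, 4.61 and 5.19 in CD157+CD200+ and -3.18, -2.98 and -1.67 in CD157-CD200-. Mall, a protein of membrane rafts, had 2.92, 2.91 and 2.83 in CD157+CD200+ and -5.85, -4.92 and -3.13 in CD157-CD200-, where 1 of 3 CD157-CD200- arrays was well above background. Cyp1b1, a monooxygenase of steroids and retinoids, had 3.88, 3.57 and 3.75 in CD157+CD200+ and -4.97, -5.22 and -1.11 in CD157-CD200-, and its CD157-CD200- arrays were the most scattered of this group. The neural cell adhesion molecule Ncam1 was at least 55.8-fold higher by the probe that stood for it, while its other tested probe differed by 4.61. The adaptor gene Samd5 was at least 44.9-fold higher. No CD157-CD200- array measured either gene by these probes. Fndc1 was at least 120-fold higher, a value that rests on 1 of its probes: with only probes well above background on all 6 arrays another probe stood for it and the difference was 4.57. Bmp4, the morphogen, had 6.32, 5.99 and 5.79 in CD157+CD200+ and -0.84, -0.65 and -1.32 in CD157-CD200-, and no array of an end came near those of the other. The other tested probe of Bmp4 differed by 4.49.

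The genes with the largest differences towards CD157-CD200- had unlike functions. Adam23, a membrane protein with a disintegrin domain, stood at 4.11, 3.88 and 4.30 on the CD157-CD200- arrays. It was not well above background on any CD157+CD200+ array, which makes it at least 277-fold lower there by this probe. Its other tested probe differed by -7.36. Dnase1l3, a secreted deoxyribonuclease that degrades chromatin in blood, had -3.42, -2.99 and -3.04 in CD157+CD200+ and 4.63, 4.24 and 3.94 in CD157-CD200-. Aass, the first enzyme of lysine breakdown, had 0.40, -0.07 and 0.37 in CD157+CD200+ and 5.76, 5.39 and 5.72 in CD157-CD200-. The Fc receptor Fcgr3 (-5.36 ± 0.26) and the inhibitory Fc receptor Fcgr2b (-5.60 ± 0.27) were both lower in CD157+CD200+. Slc40a1, ferroportin, the exporter of iron, fell by a log2 difference of -5.27 ± 0.20, with levels of -1.65, -1.64 and -1.53 in CD157+CD200+ and 3.95, 3.45 and 3.61 in CD157-CD200-. The lectin-like receptor Clec1b (-5.28 ± 0.22) and the adhesion protein Flrt1 (-5.26 ± 0.21) were also among the 15. The 3 tested probes of Flrt1 ranged from -5.26 to -2.70.

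**Figure D3:**
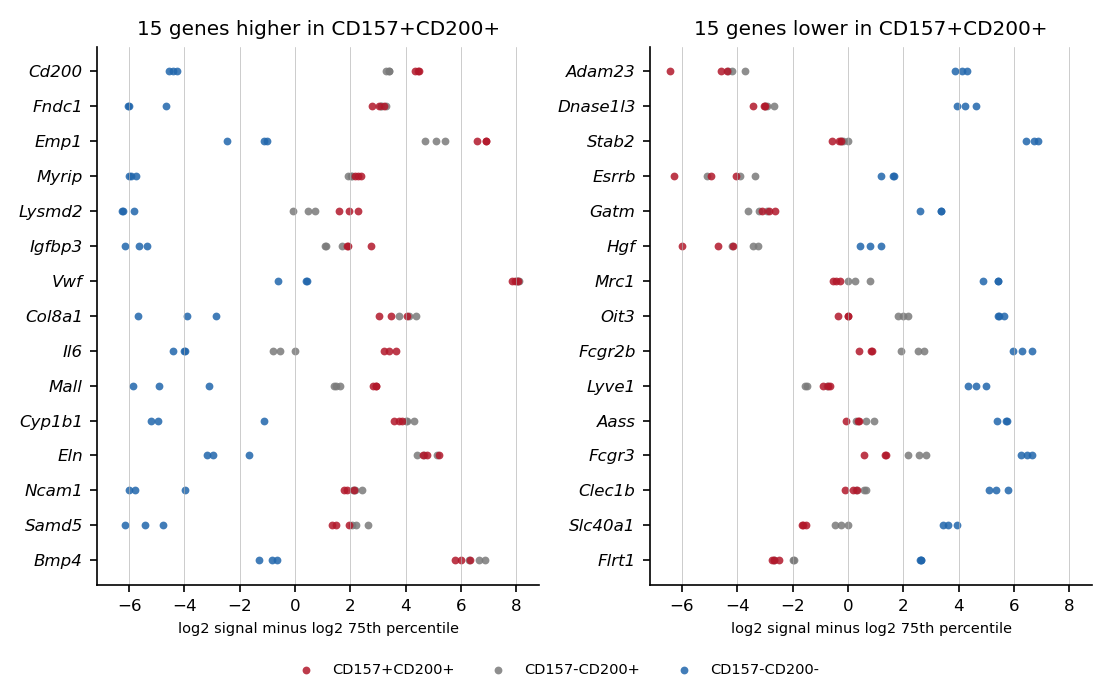
The 15 genes with the largest difference in each direction, on each array of the 3 subsets. The horizontal axis is the log2 signal relative to the 75th percentile of the array and each point is an array. The CD157-CD200- points stand apart from both other subsets for each of these genes, while for Cd200, Emp1, Myrip, Lysmd2, Igfbp3, Il6 and Mall the CD157-CD200+ points lie below those of CD157+CD200+.

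The lists below follow the roles of endothelial genes, and the plot of called members by list shows all of them against the share of all features. List members were chosen with earlier results of these data known, so the counts are descriptive. Stab2 and Vwf, used above to read the ends, belong to the sinusoidal and large-vessel lists. Among the 14363 features with a gene symbol 10.2% were higher and 8.95% lower. With the replicate block the shares of all features were 15.4% and 13.9%. Of 20 sinusoidal genes tested 19 were lower and none was higher, with a median of -3.60, against 0.01 over all features. The lymphatic receptor Flt4 (-3.50 ± 0.20), the orphan receptor Gpr182 (-1.80 ± 0.29) and the large transcription factor Maf (-3.70 ± 0.25) were among them, and Gata4 was called at -0.87 ± 0.21 but not without CD157+CD200+ replicate 2 or 3 or CD157-CD200- replicate 1, or with no filter on dim probes. Ptprb, a receptor phosphatase of all endothelium, did not pass (-0.32 ± 0.16, adjusted p = 0.25). Large-vessel genes mirrored this: 18 of 20 were higher, 16 of them measured on all 6 arrays, and none was lower (1 was with the replicate block). Fbln5, a fibulin that organises elastic fibres, had 3.20, 3.11 and 3.24 in CD157+CD200+ and -2.88, -4.04 and -3.37 in CD157-CD200-. Sparcl1, a matrix glycoprotein, had 5.62, 5.70 and 5.72 in CD157+CD200+ and -0.05, 0.51 and -0.16 in CD157-CD200-.

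Arterial and venous genes were both found on the CD157+CD200+ side. Of 18 arterial genes 11 were higher, 9 of them measured on all 6 arrays, and 2 lower, with a median of 1.57. Gja5, connexin 40 of arterial endothelium, had 5.87, 5.58 and 5.91 in CD157+CD200+ and -0.20, -0.21 and -0.07 in CD157-CD200-. The kinase Bmx (a 16-fold difference) and the secreted semaphorin Sema3g (2.89 ± 0.36; measured on 1 of 3 CD157-CD200- arrays) were higher, while the other arterial connexin gene, Gja4 (-1.24 ± 0.27), and the co-receptor Nrp1 (-1.15 ± 0.21) were lower. The arterial factors and ligands Sox17 (0.91 ± 0.29, adjusted p = 0.064, and 0.0046 with the replicate block, called without CD157+CD200+ replicate 3, or under normexp, or with a robust trended prior), Efnb2 (0.45 ± 0.18, adjusted p = 0.14, and 0.014 with the replicate block) and Dll4 (0.05 ± 0.17, adjusted p = 0.91) did not pass the test. Of 16 venous and central vein genes 9 were higher, among them the apelin receptor Aplnr (a 32.1-fold difference) and the selectin gene Selp (5.29 ± 0.26). Kit, the stem cell factor receptor that marks endothelium near central veins, was lower, with levels of 1.51, 1.27 and 1.60 in CD157+CD200+ and 5.28, 4.75 and 5.10 in CD157-CD200-. With the replicate block, without CD157+CD200+ replicate 3 and in 2 further settings a second venous gene was called lower. The venous factor Nr2f2 (-0.27 ± 0.19, adjusted p = 0.46), the receptor Ephb4 (-0.24 ± 0.27, adjusted p = 0.68) and the central vein ligand Wnt2 (-0.30 ± 0.66, adjusted p = 0.87) did not pass.

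Of 6 lymphatic genes tested 4 were lower and 1 was higher. Lyve1, the hyaluronan receptor of lymphatics and sinusoids, had -0.64, -0.72 and -0.90 in CD157+CD200+ and 4.63, 4.98 and 4.36 in CD157-CD200-. The integrin gene Itga9 (-2.45 ± 0.27) was also lower, and Mmrn1 (-2.16 ± 0.52) was called but not without CD157+CD200+ replicate 1 or CD157-CD200- replicate 1 or 3. The member that was higher was neurotensin, Nts, with levels of 1.37, 1.46 and 1.86 in CD157+CD200+ and -5.84, -6.02 and -3.11 in CD157-CD200- and a single CD157-CD200- array above background. The lymphatic master regulator Prox1 (0.25 ± 0.25, adjusted p = 0.63) did not pass, and podoplanin, Pdpn, and Reln did not reach the filter in any subset. 

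**Figure D4:**
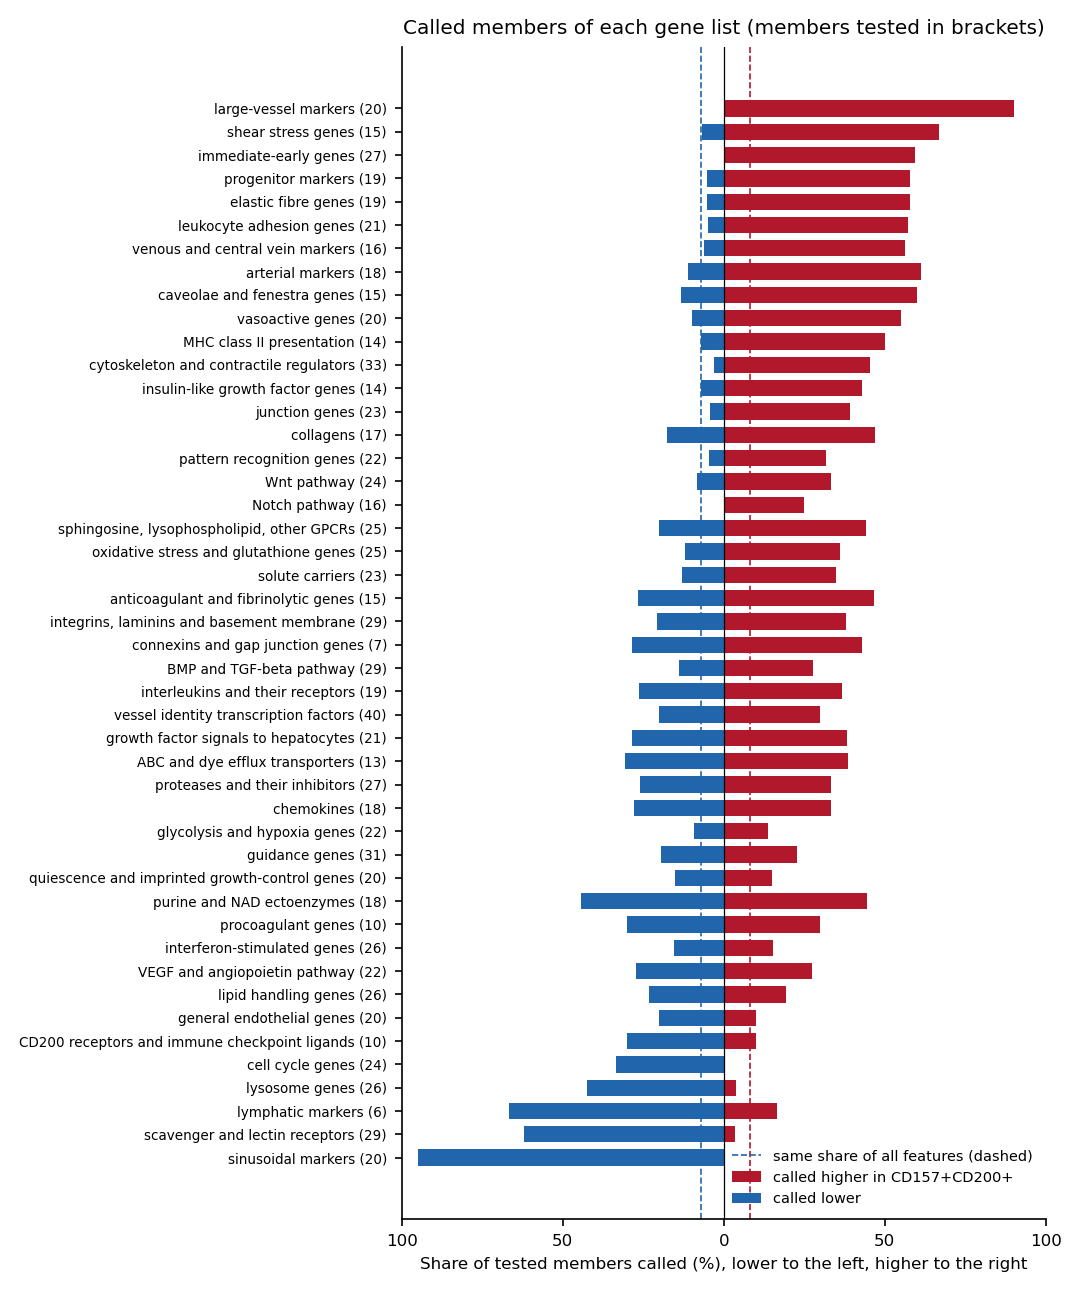
Share of the tested members of each gene list that was called higher (right, red) or lower (left, blue) in CD157+CD200+, in percent, with the number tested in brackets. The dashed lines give the share of all features called, 8.09% higher and 7.11% lower. Among features with a gene symbol, to which all list members belong, these shares were 10.2% and 8.95%. Large-vessel genes reach furthest right and sinusoidal genes furthest left.

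Cell contacts differed gene by gene. Of 23 junction genes 9 were higher, 7 of them measured on all 6 arrays, and 1 lower. The claudin gene Cldn11 was higher, with 2.55, 2.29 and 1.86 in CD157+CD200+ and -3.38, -1.15 and -0.34 in CD157-CD200-. Another claudin gene, Cldn5, was lower, with 4.41, 4.50 and 4.52 in CD157+CD200+ and 6.09, 5.65 and 5.95 in CD157-CD200-, and its signal was above that of Cldn11 at both ends. The groups did not overlap for either gene, which held for 6945 of the 23701 features tested (29.3%). The polarity scaffold Pard3 was higher by 4.07 ± 0.44, or by 2.32 when its probes were averaged, and the adhesion molecules Jam3 (2.12 ± 0.21) and Jam2 (1.51 ± 0.27) and the atypical cadherin Cdh13 (1.38 ± 0.28) were higher too. Occludin, Ocln, was at least 2.45-fold higher, a call lost under normexp. Adherens and tight junction scaffolds present in most cells did not pass, such as Ctnnb1 (0.43 ± 0.15, adjusted p = 0.09, and 0.013 with the replicate block, called under normexp, or with a robust trended prior) and Tjp1 (0.24 ± 0.29, adjusted p = 0.71). Among the connexins, Gjc1 (3.05 ± 0.28) was higher beside Gja5, and the gap junction gene Gja1 (-0.01 ± 0.22, adjusted p = 0.99) did not pass. Gja4 was lower, and Gjb2 was called lower, but not without any CD157+CD200+ replicate or CD157-CD200- replicate 2, or under normexp, or with no filter on dim probes.

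Blood clotting genes were split between the ends. On the procoagulant side, F8, clotting factor VIII, a product of sinusoidal endothelium, had 2.82, 2.31 and 2.87 in CD157+CD200+ and 4.81, 4.51 and 4.93 in CD157-CD200-, and Vwf, its carrier in plasma, went the other way as given above. The thrombin receptor F2r (-1.12 ± 0.17) was lower. The receptor of platelet-activating factor, Ptafr, was at least 3.43-fold higher. Tissue factor, F3 (0.67 ± 0.46, adjusted p = 0.43), and factor V, F5 (0.25 ± 0.17, adjusted p = 0.44), did not pass. Of 15 anticoagulant and fibrinolytic genes 7 were higher, 5 of them measured on all 6 arrays, and 4 lower. Tissue plasminogen activator, Plat, had 1.84, 1.72 and 1.09 in CD157+CD200+ and -3.75, -2.81 and -3.28 in CD157-CD200-, and the protein C receptor, Procr, had 3.37, 3.42 and 4.03 in CD157+CD200+ and 0.23, 0.32 and 1.29 in CD157-CD200-. Tissue factor pathway inhibitor, Tfpi, was lower, with 2.76, 2.65 and 2.82 in CD157+CD200+ and 5.20, 4.94 and 5.21 in CD157-CD200-, as were urokinase Plau (-1.58 ± 0.17), antithrombin Serpinc1 (-1.30 ± 0.27) and protein S Pros1 (-1.06 ± 0.17).

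Genes that set vessel tone were mostly higher in CD157+CD200+: 11 of 20 against 2 lower, and 6 of the 11 were measured on all 6 arrays. Edn1, the constrictor endothelin 1, had 4.97, 4.57 and 4.76 in CD157+CD200+ and -2.21, -1.30 and -0.88 in CD157-CD200-. Angiotensin-converting enzyme, Ace, had 4.59, 4.75 and 3.36 in CD157+CD200+ and 0.17, -0.55 and -0.80 in CD157-CD200-. Npr3, the clearance receptor of natriuretic peptides, differed by 5.76 ± 0.54, and the bradykinin receptor Bdkrb2 was at least 3.3-fold higher. The synthase of nitric oxide, Nos3, was higher by a small step, with 1.58, 1.76 and 1.72 in CD157+CD200+ and 0.99, 0.65 and 1.00 in CD157-CD200-, while its trafficking partner Nostrin (-1.99 ± 0.33) and adrenomedullin Adm (-1.82 ± 0.29) were lower. Genes that respond to flow shared some of these members, and of 15 such genes 10 were higher and 1, haem oxygenase Hmox1 (-1.16 ± 0.17), was lower. Of the 10 higher ones 7 were measured on all 6 arrays. The flow-induced factor Klf2 (0.19 ± 0.22, adjusted p = 0.69) and Klf4 (0.88 ± 0.27, adjusted p = 0.054, and 0.011 with the replicate block, called without CD157-CD200- replicate 3, or under normexp, or with only probes measured on all 6 arrays, or with a robust trended prior) did not pass. The aryl hydrocarbon targets Cyp1a1, at least 11.2-fold higher, and Nqo1 (3.02 ± 0.21) rose with Cyp1b1.

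The molecules that capture leukocytes were higher in CD157+CD200+ in 12 of 21 cases, all 12 measured on all 6 arrays. P-selectin, Selp, had 4.54, 5.02 and 4.69 in CD157+CD200+ and -0.22, -0.92 and -0.49 in CD157-CD200-, and E-selectin, Sele, had 1.99, 2.50 and 2.03 in CD157+CD200+ and -2.31, -1.41 and -1.37 in CD157-CD200-. The sialomucin Cd34 (3.82 ± 0.18), the activated leukocyte adhesion molecule Alcam (3.51 ± 0.34) and the vascular cell adhesion molecule Vcam1 (1.36 ± 0.20) were higher as well. Cd47, the signal that restrains phagocytes, was lower (-1.21 ± 0.19), and with the replicate block 2 members were. Icam1 was called at 0.90 ± 0.26 but not without any CD157+CD200+ replicate or CD157-CD200- replicate 1 or 2, or with only the 6 arrays fitted, or in the series table, or with no filter on dim probes, and Icam2 (-0.63 ± 0.25, adjusted p = 0.15, and 0.024 with the replicate block) did not pass.

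Chemokine genes went in both directions. Cxcl12, which holds lymphocytes and progenitors, had 4.40, 4.59 and 4.19 in CD157+CD200+ and 1.62, 0.80 and 1.22 in CD157-CD200-, and its decoy receptor Ackr3 (4.71 ± 0.34; measured on 1 of 3 CD157-CD200- arrays) and its receptor Cxcr4 (2.54 ± 0.28) were higher with it. The membrane-bound chemokine Cx3cl1 (3.45 ± 0.32) was also higher. Lower were Pf4, platelet factor 4, with -5.96, -3.78 and -2.69 in CD157+CD200+ and 0.18, -0.95 and 0.65 in CD157-CD200-, the decoy receptors Ackr4 (-4.16 ± 0.27; measured on 2 of 3 CD157+CD200+ arrays) and Ackr2 (-1.85 ± 0.23), the monocyte attractant Ccl2 (-1.96 ± 0.28) and the interferon-induced Cxcl9 (-1.64 ± 0.26). In all, 6 of 18 were higher and 5 lower, and with the replicate block 8 were lower. Of these 6 and 5 genes, 5 and 3 were measured on all 6 arrays.

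Interleukin 6, Il6, had the largest difference of the interleukin genes, with levels of 3.41, 3.65 and 3.20 in CD157+CD200+ and -4.42, -4.02 and -3.98 in CD157-CD200-. A single CD157-CD200- array was well above background for it. Csf3, which drives neutrophil production, was at least 2.47-fold higher, and the alarmin Il33 (1.73 ± 0.19) and the receptor Il1r1 (1.15 ± 0.20) were higher. Il1a, interleukin 1 alpha, went the other way, with -2.02, -2.11 and -1.54 in CD157+CD200+ and 2.71, 2.36 and 3.18 in CD157-CD200-, and Csf1 (-1.23 ± 0.25) and the receptor Lifr (-1.16 ± 0.19) were lower. The shared receptor chain Il6st (-0.00 ± 0.17, adjusted p = 0.997) and the feedback inhibitor Socs3 (0.66 ± 0.37, adjusted p = 0.31, and 0.03 with the replicate block) did not pass. The list had 7 of 19 members higher and 5 lower. Of the 7 higher members 3 were measured on all 6 arrays. The lower count was 3 with only the 6 arrays compared, without a filter, or without CD157+CD200+ replicate 1 or 2 or CD157-CD200- replicate 1 or 3, since the calls of Il13ra1 and Il10rb were lost.

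In the Notch pathway, which sets arterial identity, the ligands of the Jagged family were higher. Jag1 had 3.25, 3.47 and 3.26 in CD157+CD200+ and 0.51, 0.53 and 0.56 in CD157-CD200-, and Jag2 had -0.42, 0.11 and -0.00 in CD157+CD200+ and -5.10, -5.67 and -3.45 in CD157-CD200-, where 1 of 3 CD157-CD200- arrays was well above background. The target Hey1 (2.19 ± 0.22) and the receptor of mural cells Notch3 (3.05 ± 0.45; measured on 1 of 3 CD157-CD200- arrays) were higher. Notch1 (0.07 ± 0.26, adjusted p = 0.93), Notch4 (-0.52 ± 0.16, adjusted p = 0.052, and 0.014 with the replicate block, called under normexp, or with only probes measured on all 6 arrays, or with averaged probes, or with a robust trended prior) and the transcription factor Rbpj (0.11 ± 0.19, adjusted p = 0.82) did not pass. Of 16 genes 4 were higher, 2 of them measured on all 6 arrays, and none was lower, although with the replicate block, under normexp and with a robust trended prior 2 were.

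Wnt genes included some of the clearest differences. Wnt9b, a ligand of central vein endothelium that maintains zonation of hepatocytes, had 4.73, 4.75 and 4.50 in CD157+CD200+ and 1.38, 0.44 and 0.81 in CD157-CD200-, and Rspo3, which strengthens Wnt signals in the same place, had 4.89, 4.68 and 4.63 in CD157+CD200+ and 1.20, -0.06 and 0.51 in CD157-CD200-. The transcription factor Lef1 was at least 7.61-fold higher, and the secreted inhibitors Dkk2 and Sfrp1 were at least 12-fold and at least 14.9-fold higher. Axin2, a common target of the pathway, was higher by 1.90 ± 0.44, a call lost without CD157+CD200+ replicate 1, and the ligase Rnf43 (3.45 ± 0.55; measured on 2 of 3 CD157-CD200- arrays) was higher as well. Dkk3, a divergent member of the Dickkopf family, was lower, with -5.53, -4.20 and -3.50 in CD157+CD200+ and 0.77, 0.61 and 0.40 in CD157-CD200-. Of 24 genes 8 were higher, of which 3 were measured on all 6 arrays, and 2 were lower, Dkk3 and the co-receptor Lrp6 (-1.32 ± 0.23), of which Lrp6 was measured on all 6. The receptor Fzd4 (-0.12 ± 0.21, adjusted p = 0.82) did not pass.

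Members of the BMP and TGF-beta family split by ligand. Bmp4 is given above. Bmp2 and Bmp6, which sinusoidal cells send to hepatocytes to induce hepcidin, were lower: Bmp2 had 3.37, 3.86 and 3.09 in CD157+CD200+ and 7.43, 7.31 and 7.07 in CD157-CD200- and Bmp6 had 2.01, 1.96 and 2.08 in CD157+CD200+ and 3.92, 3.94 and 3.87 in CD157-CD200-. Activin A, Inhba, was at least 46.6-fold higher. The latent TGF-beta system was higher in several parts, with Tgfb2 (5.69 ± 0.26; measured on 1 of 3 CD157-CD200- arrays), the binding protein Ltbp1 (4.66 ± 0.36) and the follistatin-like Fstl1 (6.07 ± 0.36). The receptor of arteriovenous identity Acvrl1 (1.52 ± 0.21) was higher and its partner Eng (-0.66 ± 0.38, adjusted p = 0.32, and 0.0026 with the replicate block) did not pass. The targets Id1 (0.11 ± 0.18, adjusted p = 0.80) and Smad6 (0.20 ± 0.21, adjusted p = 0.65) did not pass. In total 8 of 29 were higher, 6 of them measured on all 6 arrays, and 4 lower, or 7 lower with the replicate block.

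The VEGF receptors Kdr and Flt4 were lower, and the ligands went in both directions. Kdr, the main receptor of VEGF, had 4.67, 4.83 and 4.48 in CD157+CD200+ and 6.48, 6.29 and 5.98 in CD157-CD200-, and Flt4, the receptor of VEGF-C, had 1.11, 0.87 and 0.95 in CD157+CD200+ and 4.77, 4.51 and 4.14 in CD157-CD200-. Vegfc itself was higher (2.72 ± 0.17), as were placental growth factor Pgf (2.63 ± 0.43) and the platelet-derived growth factor Pdgfb (1.57 ± 0.25). The ligand Vegfb (-1.47 ± 0.25) was lower, and Vegfa (0.33 ± 0.18, adjusted p = 0.31) did not pass. Angiopoietin 2, Angpt2, had -0.86, -0.45 and -0.70 in CD157+CD200+ and 1.95, 2.61 and 2.08 in CD157-CD200-, and Esm1 (-2.00 ± 0.32) was also lower. The angiopoietin receptors Tek (0.15 ± 0.20, adjusted p = 0.74) and Tie1 (0.11 ± 0.25, adjusted p = 0.87) did not pass. The whole list had 6 of 22 higher and 6 lower.

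The signals from endothelium to hepatocytes divided likewise. Hgf, the hepatocyte growth factor, was measured on every CD157-CD200- array at 1.20, 0.81 and 0.45 and on no CD157+CD200+ array, so that it was at least 28.6-fold lower. Pleiotrophin, Ptn, was higher (5.24 ± 0.51), as were the matricellular factors Ccn2 (2.86 ± 0.21) and Ccn1 (2.21 ± 0.32). Fgf1 was lower (-1.75 ± 0.34). Of 21 genes 8 were higher, 4 of them measured on all 6 arrays, and 6 lower; Il6, Rspo3, Wnt9b, Bmp2, Bmp6 and Angpt2 are counted here again. Among insulin-like growth factor genes Igfbp3, the main carrier, was at least 67.5-fold higher, Igf2 was at least 4.3-fold higher, and the receptors Insr (2.38 ± 0.18) and Igf2r (1.68 ± 0.19) and the carriers Igfbp5 (2.04 ± 0.29) and Igfbp6 (2.07 ± 0.32; measured on 2 of 3 CD157-CD200- arrays) were higher. The receptor Igf1r (-0.16 ± 0.17, adjusted p = 0.63) did not pass. That list had 6 of 14 higher, 3 of them measured on all 6 arrays. Its 1 lower call, Igf1 (-1.23 ± 0.31), was lost without CD157+CD200+ replicate 1 or 2 or CD157-CD200- replicate 1 or 3, or with no filter on dim probes. Besides, 2 were lower with the replicate block.

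Elastic fibre genes, which build the wall of large vessels, were mostly higher. Of 19 tested 11 were higher, 7 of them measured on all 6 arrays, with a median of 1.64, or 1.10 if genes without a measurement at one end are set to their bounds. Fbln2 had 4.81, 4.79 and 4.84 in CD157+CD200+ and -2.28, -1.57 and -2.14 in CD157-CD200-, Mgp, an inhibitor of calcification, had 6.86, 6.84 and 6.39 in CD157+CD200+ and 0.07, 0.46 and -0.27 in CD157-CD200-, and lysyl oxidase, Lox, which cross-links elastin, was at least 24.9-fold higher. Fibrillin 1 was higher (3.34 ± 0.21). Emilin1, a glycoprotein of elastic fibres, was lower (-2.69 ± 0.25), and with the replicate block 3 members were.

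Collagen genes went in both directions. Col8a1, a short-chain collagen of vessel intima, differed by 7.67 ± 0.60, measured on 1 of 3 CD157-CD200- arrays, and Col6a3 (6.13 ± 0.42), Col14a1 (4.32 ± 0.25; measured on 1 of 3 CD157-CD200- arrays), Col18a1, the source of endostatin (2.91 ± 0.25), and Col5a2 (2.14 ± 0.38; measured on 2 of 3 CD157-CD200- arrays) were higher. Col13a1, a membrane collagen, had -3.73, -3.86 and -2.86 in CD157+CD200+ and -0.25, -0.01 and 1.05 in CD157-CD200-, and the basement membrane chain Col4a2 (-1.03 ± 0.21) was lower. The fibrillar Col1a1 (-0.09 ± 0.38, adjusted p = 0.94) did not pass. Of 17 collagen genes 8 were higher and 3 lower, and 4 of the higher ones were measured on all 6 arrays.

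Integrins and laminins also exchanged members. Itga8 and Itga9, partners of the beta 1 chain, were lower: Itga8 had -2.36, -2.34 and -1.53 in CD157+CD200+ and 2.44, 1.76 and 2.81 in CD157-CD200-. Itga1 was lower too (-0.91 ± 0.18). Itga3 (3.72 ± 0.21), Itgb4 (4.01 ± 0.25) and the laminin chain Lamb1 (4.30 ± 0.31), all of continuous basement membranes, were higher, as were the proteoglycans Sdc1 (4.65 ± 0.19) and Spock2 (4.38 ± 0.37). The shared chain Itgb1 (-0.12 ± 0.20, adjusted p = 0.81) and Lama4 (-0.47 ± 0.16, adjusted p = 0.087, and 0.017 with the replicate block, called with a robust trended prior) did not pass. In total 11 of 29 were higher and 6 lower.

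Among proteases, the gelatinase Mmp2 (4.01 ± 0.48; measured on 1 of 3 CD157-CD200- arrays) and the aggrecanases Adamts4 (3.45 ± 0.47) and Adamts9 (2.48 ± 0.25) were higher with the inhibitors Timp2 (3.39 ± 0.29) and Timp1 (2.07 ± 0.38; measured on 1 of 3 CD157-CD200- arrays), and cathepsin H, Ctsh, had 4.35, 4.01 and 4.14 in CD157+CD200+ and -1.94, -1.31 and -1.40 in CD157-CD200-. The lysosomal cathepsins Ctsl (-2.17 ± 0.18), Ctsd (-1.45 ± 0.26) and Ctsb (-1.23 ± 0.23) and the membrane protease Mmp14 (-1.66 ± 0.24) were lower. Of 27 genes 9 were higher and 7 lower, of which 7 and 6 were measured on all 6 arrays.

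Guidance genes, which steer axons and vessel sprouts, gave a few large differences. The semaphorin Sema7a was at least 25.3-fold higher, and the repellent Slit3 had 0.16, 0.78 and 0.58 in CD157+CD200+ and -5.75, -3.28 and -3.39 in CD157-CD200-. Plxnc1, the receptor that binds Sema7a, was lower, with 0.25, 0.33 and -0.45 in CD157+CD200+ and 5.74, 5.16 and 4.61 in CD157-CD200-, so this ligand and receptor stood at opposite ends. The ephrin receptor Epha4 (2.14 ± 0.20) was higher, and the semaphorin receptor Plxnd1 (-0.78 ± 0.17) was lower. Of 31 genes 7 were higher, 4 of them measured on all 6 arrays, and 6 lower. With the replicate block 11 were higher, and without CD157-CD200- replicate 1 the count of lower members was 3.

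The transcription factors of vessel identity followed. Foxf1, a forkhead factor of mesenchyme and endothelium, had 1.67, 1.62 and 1.86 in CD157+CD200+ and -3.85, -4.01 and -3.01 in CD157-CD200-, and Foxc2, of arteries and lymphatic valves, had 1.48, 1.51 and 1.10 in CD157+CD200+ and -3.80, -2.88 and -2.25 in CD157-CD200-. Tbx3 was at least 7.7-fold higher. Gata6 (2.89 ± 0.22) and Foxc1 (2.61 ± 0.21) were higher. On the other side Esrrb, an orphan nuclear receptor, was at least 45.9-fold lower, and Tfec (-2.22 ± 0.28), Meis1 (-1.17 ± 0.25), Nr2f1 (-1.11 ± 0.19) and Maf were lower. Pan-endothelial factors such as Erg (-0.03 ± 0.18, adjusted p = 0.96) and Sox18 (-0.14 ± 0.22, adjusted p = 0.78) did not pass. Of 40 factors 12 were higher and 8 lower, of which 9 and 7 were measured on all 6 arrays.

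Genes for uptake and breakdown of blood-borne material were lower in CD157+CD200+. Of 29 scavenger and lectin receptors 18 were lower and 1, the lipoprotein receptor Scarb1 (1.29 ± 0.22), was higher, or 3 with the replicate block. The mannose receptor Mrc1 had -0.42, -0.28 and -0.55 in CD157+CD200+ and 5.44, 5.44 and 4.89 in CD157-CD200-. The C-type lectin Clec4g (-4.12 ± 0.19), the scavenger receptor Msr1 (-2.91 ± 0.17) and the adaptor Dab2 (-1.96 ± 0.26) were lower. Beyond the receptors, 11 of 26 lysosome genes were lower and 1, the sulfatase Arsb (0.88 ± 0.17), was higher. Lamp2 had 3.70, 3.99 and 4.15 in CD157+CD200+ and 5.94, 5.96 and 5.76 in CD157-CD200-, the mannosidase Man2b1 had 2.84, 2.80 and 2.53 in CD157+CD200+ and 4.86, 4.76 and 4.42 in CD157-CD200-, and Lamp1 (-0.97 ± 0.16) and Naglu (-1.36 ± 0.29) were lower; the master factor Tfeb (0.33 ± 0.19, adjusted p = 0.32) did not pass. The lower count was 7 without CD157+CD200+ replicate 1.

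Caveola genes went the opposite way. Caveolin 1, Cav1, had 5.06, 5.03 and 3.97 in CD157+CD200+ and 1.96, 1.65 and 0.89 in CD157-CD200-, and Cavin3 had 3.84, 4.24 and 3.25 in CD157+CD200+ and -1.59, -1.92 and -1.79 in CD157-CD200-. Ehd2 and Ehd4, ATPases at the neck of caveolae, were higher (3.60 ± 0.25 and 3.31 ± 0.19), and their relative Ehd3 was lower, with 3.78, 3.53 and 3.50 in CD157+CD200+ and 5.73, 5.54 and 5.70 in CD157-CD200-. The diaphragm protein Plvap was higher (2.43 ± 0.22). Of 15 genes 9 were higher and 2 lower, and Cav2 (-0.05 ± 0.17, adjusted p = 0.92) and Cavin2 (0.36 ± 0.19, adjusted p = 0.29, and 0.031 with the replicate block) did not pass. Tspan7 was the other lower member (-0.95 ± 0.25), and that call was lost without CD157+CD200+ replicate 1 or 2 or CD157-CD200- replicate 1 or 3, or with no filter on dim probes.

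Of the efflux transporters, the P-glycoprotein gene Abcb1a had 3.18, 3.29 and 3.06 in CD157+CD200+ and -2.58, -1.81 and -2.98 in CD157-CD200- and the breast cancer resistance protein gene Abcg2 had 4.04, 3.91 and 3.50 in CD157+CD200+ and 0.81, 0.53 and 0.33 in CD157-CD200-. The cholesterol exporter Abca1 (1.69 ± 0.19) was higher. The exporters Abcc3 (-1.47 ± 0.17) and Abcc4 (-0.89 ± 0.18) were lower, as was Abcc9 (-2.16 ± 0.32), the regulatory subunit of a potassium channel. The sterol exporter Abcg1 (-1.09 ± 0.30) was called lower but not without CD157+CD200+ replicate 1 or 3 or CD157-CD200- replicate 1 or 2, or with only the 6 arrays fitted, or with no filter on dim probes. Of 13 genes of the family 5 were higher and 4 lower. Glucose uptake carriers Slc2a1 (2.53 ± 0.31) and Slc2a3 (2.91 ± 0.21) and the creatine and carnitine carrier Slc16a9 (4.27 ± 0.28) were higher. The zinc carrier Slc39a8 (-1.81 ± 0.20) and the nucleoside carrier Slc29a1 (-1.15 ± 0.16) were lower beside ferroportin. Of 23 solute carriers 8 were higher and 3 lower, or 5 lower with the replicate block.

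Lipid handling was mixed, with 5 of 26 higher and 6 lower. Gpihbp1, which moves lipoprotein lipase across capillaries, had 4.73, 4.54 and 4.41 in CD157+CD200+ and 7.66, 7.27 and 7.19 in CD157-CD200-, and the fatty acid translocase Cd36 had 3.40, 3.20 and 3.06 in CD157+CD200+ and 5.37, 5.56 and 4.88 in CD157-CD200-. Apoe (-1.13 ± 0.15) and Fabp5 (-1.48 ± 0.20) were lower too. Slc27a3 was higher (3.22 ± 0.23). The lipase gene Lpl (0.95 ± 0.32, adjusted p = 0.079, called without CD157+CD200+ replicate 2) did not pass. Glycolytic enzymes mostly did not pass, such as Aldoa (0.44 ± 0.28, adjusted p = 0.38, and 0.019 with the replicate block) and Ldha (0.23 ± 0.17, adjusted p = 0.49), but hexokinase 2, Hk2, was lower (-2.56 ± 0.56), and the hypoxia sensor Egln3 (2.34 ± 0.27) and the activator Pfkfb3 (1.57 ± 0.18) were higher. Of 22 such genes 3 were higher and 2 lower, against 10.2% and 8.95% of features with a gene symbol. Of the lower ones 1 was measured on all 6 arrays, and with the replicate block 8 were higher. Metallothioneins, which bind zinc and copper, were lower: Mt1 had 2.91, 3.20 and 2.33 in CD157+CD200+ and 6.33, 6.35 and 5.80 in CD157-CD200- and Mt2 had 3.29, 3.66 and 3.21 in CD157+CD200+ and 5.72, 5.58 and 5.42 in CD157-CD200-. Both belong to the list of oxidative stress genes, of which 9 of 25 were higher and 3 lower. The higher ones included Mgst1 (2.16 ± 0.18), the extracellular dismutase Sod3 (1.85 ± 0.27) and Gstm5 (1.84 ± 0.28), and Hmox1 was the third lower member.

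Antigen presentation genes were higher in part. H2-DMb1, which loads peptide onto MHC class II, had -0.34, 0.06 and -0.03 in CD157+CD200+ and -3.21, -3.45 and -3.82 in CD157-CD200-, and the class II chains H2-Aa and H2-Ab1 had 0.94, 1.24 and 0.40 in CD157+CD200+ and -1.22, -1.38 and -1.29 in CD157-CD200- and 2.74, 2.88 and 2.21 in CD157+CD200+ and 0.71, 0.39 and 0.33 in CD157-CD200-. The invariant chain Cd74 (1.65 ± 0.67, adjusted p = 0.15, and 0.00061 with the replicate block, called without CD157+CD200+ replicate 3) and the master factor Ciita (-0.26 ± 0.22, adjusted p = 0.55) did not pass. Of 14 genes 7 were higher, H2-Eb1 among them with a call lost without CD157+CD200+ replicate 1 or 2 or any CD157-CD200- replicate, or with no filter on dim probes. Of the 7 higher ones 5 were measured on all 6 arrays. The single lower member, Ctss (-1.50 ± 0.43), was lost without any CD157+CD200+ replicate or any CD157-CD200- replicate, or under quantile normalization, or with no filter on dim probes. The Kupffer cell and monocyte markers, cells that carry MHC class II, summed to 137 to 200 times the 75th percentile in CD157+CD200+ and to 168 to 211 in CD157-CD200-. Itgam (-0.04 ± 0.28, adjusted p = 0.96) and Csf1r (-0.09 ± 0.19, adjusted p = 0.85) made up most of this sum, and without both, a choice made after seeing the data, it was 6 to 8.2 against 14.2 to 33.7. The part of these cells in this result was not tested. Interferon-stimulated genes gave 4 of 26 higher and 4 lower, against 10.2% and 8.95% of features with a gene symbol. The guanylate-binding Gbp2 (0.97 ± 0.15) and Igtp (0.96 ± 0.19) were higher, and Oas1a (-1.47 ± 0.16), Ifit2 (-1.34 ± 0.27) and Bst2 (-0.80 ± 0.15) lower. Of 22 pattern recognition genes 7 were higher, with the TNF receptor Tnfrsf1b at 2.32, 2.35 and 2.13 in CD157+CD200+ and -4.63, -2.97 and -2.97 in CD157-CD200-, Tnfaip2 (2.59 ± 0.26) and the inhibitor Tnfaip3 (1.52 ± 0.22). Ly96, the partner of Tlr4, was lower (-1.48 ± 0.24), and with the replicate block 3 were. The Toll-like receptors Tlr4 (-0.20 ± 0.30, adjusted p = 0.78) and Tlr2 (0.12 ± 0.23, adjusted p = 0.84) did not pass.

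Immediate-early genes, which respond within minutes to stimuli and also to tissue dissociation, were higher in 16 of 27 cases and lower in none, with a median of 0.97. Dusp2, a phosphatase of MAP kinases, had 4.72, 4.80 and 4.96 in CD157+CD200+ and 0.39, 0.32 and 0.62 in CD157-CD200-, and Egr3 had 2.57, 3.64 and 1.89 in CD157+CD200+ and -1.32, 0.81 and -0.68 in CD157-CD200-. Nr4a1 was higher by 1.73 ± 0.34, and Fosl2 had 7.63, 7.61 and 7.64 in CD157+CD200+ and 5.58, 5.41 and 6.13 in CD157-CD200-. Best known members did not pass: Fos (0.34 ± 0.21, adjusted p = 0.37), Egr1 (0.30 ± 0.15, adjusted p = 0.26, called with a robust trended prior) and Jun (0.55 ± 0.24, adjusted p = 0.18, and 0.017 with the replicate block). The count of higher members was 9 without CD157+CD200+ replicate 1, 7 without CD157+CD200+ replicate 2, 6 without CD157-CD200- replicate 1 and 8 with no filter on dim probes. With the replicate block 2 members were lower, and 1 was under normexp, quantile normalization and a robust trended prior. The labels give no time between dissection and lysis, and its part was not tested.

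Cell cycle genes were lower in CD157+CD200+ in 8 of 24 cases and higher in none. Cyclin A2, Ccna2, had -2.67, -3.51 and -2.90 in CD157+CD200+ and -1.48, -1.88 and -0.87 in CD157-CD200- and the nucleotide reductase subunit Rrm2 had -2.33, -1.99 and -2.77 in CD157+CD200+ and -1.31, -0.85 and -0.51 in CD157-CD200-. The centromere histone gene Cenpa (-1.22 ± 0.21) was lower too. The proliferation marker Mki67 (-0.62 ± 0.33, adjusted p = 0.28), topoisomerase Top2a (-1.10 ± 0.43, adjusted p = 0.13, called without CD157+CD200+ replicate 3) and the replication clamp Pcna (0.15 ± 0.24, adjusted p = 0.80) did not pass. The count was 14 with the replicate block, and 5 without CD157+CD200+ replicate 1, CD157-CD200- replicate 1 or 3, or the filter on dim probes. Of the cyclin-dependent kinase inhibitors, Cdkn1c (-0.92 ± 0.16) and Cdkn2a (-1.90 ± 0.43; measured on 2 of 3 CD157+CD200+ arrays) were lower, while Cdkn1a (0.78 ± 0.24, adjusted p = 0.057, and 0.025 with the replicate block, called without CD157-CD200- replicate 3, or under normexp, or with a robust trended prior) and Cdkn1b (0.03 ± 0.34, adjusted p = 0.98) did not pass. The antiproliferative Btg1 was higher by 1.61 ± 0.17, or by 0.93 when its probes were averaged. Of 20 quiescence and imprinted growth-control genes 3 were higher and 3 lower, against 10.2% and 8.95% of features with a gene symbol. With the replicate block these counts were 7 and 5, against 15.4% and 13.9% of all features. Under normexp, with averaged probes and with a robust trended prior 5 were higher.

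Markers used for stem and progenitor cells were higher in 11 of 19 cases, but this list holds both sort antigens, so its count is not independent of the sort. Of the 11 higher ones 9 were measured on all 6 arrays. Sca-1, Ly6a, had 6.47, 6.24 and 6.44 in CD157+CD200+ and 5.06, 4.51 and 5.31 in CD157-CD200-, and prominin 1, Prom1, had 0.24, 0.12 and 0.79 in CD157+CD200+ and -1.42, -0.76 and -1.30 in CD157-CD200-. Itga6 (1.19 ± 0.17) and Aldh1a1 (1.56 ± 0.23) were higher. Kit was lower, and with the replicate block a second member was. The polycomb gene Bmi1 (0.12 ± 0.22, adjusted p = 0.83) and Mcam (0.10 ± 0.15, adjusted p = 0.78) did not pass.

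CD157 belongs to a set of ectoenzymes that process nucleotides outside the cell, and these genes were divided evenly, 8 of 18 higher and 8 lower. This list holds the sort antigen Bst1, so its count of higher members is not independent of the sort. Cd38, the paralog of Bst1 with the same activity on NAD, went against it, with 5.70, 5.56 and 5.89 in CD157+CD200+ and 7.04, 6.76 and 7.05 in CD157-CD200-. Entpd1, the ectonucleotidase CD39, had 2.97, 2.84 and 3.36 in CD157+CD200+ and -2.69, -3.02 and -2.41 in CD157-CD200-, and Nt5e, the CD73 that makes adenosine, was at least 8.06-fold higher. The lysophospholipase Enpp2 (4.19 ± 0.58; measured on 1 of 3 CD157-CD200- arrays) and the receptors P2ry2 (4.53 ± 0.49; measured on 1 of 3 CD157-CD200- arrays) and P2ry6 (5.20 ± 0.39; measured on 1 of 3 CD157-CD200- arrays) were higher. Adenosine deaminase, Ada, had -2.05, -2.26 and -2.20 in CD157+CD200+ and 0.02, -0.43 and -0.10 in CD157-CD200-. The dipeptidase Dpp4, which anchors it on human cells, had 0.42, 0.66 and 1.09 in CD157+CD200+ and 5.24, 5.07 and 5.22 in CD157-CD200-, and the receptors P2ry1 (-4.58 ± 0.37) and P2rx4 (-2.42 ± 0.17) were lower. All 8 lower members and 2 of the 8 higher ones were measured on all 6 arrays. The receptor gene of CD200, Cd200r1, did not reach the filter in any subset. Among ligands that restrain immune cells Sirpa (-1.37 ± 0.18) was lower with Cd47, and Cd274 (-0.28 ± 0.18, adjusted p = 0.39) and Tigit (0.02 ± 0.61, adjusted p = 0.99) did not pass. Vsir (-0.62 ± 0.16) was called, but not without any CD157+CD200+ replicate or CD157-CD200- replicate 1, or with only the 6 arrays fitted, or with no filter on dim probes.

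Among cytoskeleton and contractile genes, many of them calcium-binding or actin-linking, 15 of 33 were higher and 1 was lower. The nuclear lamina gene Lmna had 3.16, 3.41 and 3.19 in CD157+CD200+ and -1.24, -0.82 and -0.80 in CD157-CD200-, S100a6 had 5.64, 5.92 and 5.30 in CD157+CD200+ and 1.80, 2.02 and 1.36 in CD157-CD200-, and Crip1 (3.24 ± 0.20), Cdc42ep3 (2.68 ± 0.18) and alpha-actinin 1 Actn1 (2.03 ± 0.27) were higher. Myo10, a myosin of filopodia, was lower (-2.35 ± 0.40). Common contractile genes such as Myh9 (0.29 ± 0.22, adjusted p = 0.50) and Tpm1 (-0.09 ± 0.17, adjusted p = 0.83) did not pass. G protein signalling gave 11 of 25 higher, 7 of them measured on all 6 arrays, and 5 lower. The regulator Rgs16 had 6.03, 6.51 and 5.58 in CD157+CD200+ and -0.42, 0.23 and 0.71 in CD157-CD200-, the sphingosine receptor S1pr3 (3.48 ± 0.34) and the adhesion receptor Adgrg6 (3.08 ± 0.18) were higher, and Adgrg3 was lower, with 0.71, 0.29 and 0.62 in CD157+CD200+ and 4.48, 3.97 and 4.01 in CD157-CD200-. The main sphingosine receptor of endothelium, S1pr1 (1.00 ± 0.47, adjusted p = 0.22, and 0.0041 with the replicate block), did not pass. Without CD157-CD200- replicate 1 the count of lower members was 3.

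Of 20 general endothelial genes 2 were higher and 4 lower, against 10.2% and 8.95% of features with a gene symbol. With the replicate block 5 were higher and 8 lower, against 15.4% and 13.9% of all features. Pecam1 was higher, and Ecscr (0.68 ± 0.17) was called but lost without any CD157+CD200+ replicate or CD157-CD200- replicate 1 or 2, or with only the 6 arrays fitted, or with no filter on dim probes. Claudin 5, Clec14a (-1.11 ± 0.16) and Kdr were lower, and the shared receptors Tie1 (0.11 ± 0.25, adjusted p = 0.87) and Cd93 (0.45 ± 0.22, adjusted p = 0.24, and 0.033 with the replicate block) did not pass.

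Markers of other liver cells differed between the ends and are given whole. Hepatocyte markers were lower in CD157+CD200+ in 11 of 14 cases. Their summed level was 14.2 to 19.1 times the 75th percentile in CD157+CD200+ and 47.6 to 54.5 in CD157-CD200-. The fibrinogen chain Fgb had -2.67, -1.89 and -2.53 in CD157+CD200+ and 0.35, 0.70 and 0.18 in CD157-CD200- and Apoa1 had -2.98, -1.51 and -3.20 in CD157+CD200+ and -0.30, 0.13 and -0.45 in CD157-CD200-, and the count was 7 without CD157+CD200+ replicate 1 or 2, CD157-CD200- replicate 2, or the filter on dim probes. Albumin, Alb, at -0.89 ± 0.26, was called but not without any CD157+CD200+ replicate or CD157-CD200- replicate 1 or 2, or with only the 6 arrays fitted, or under quantile normalization, or in the series table, or with no filter on dim probes. Kupffer cell and monocyte markers were lower in 6 of 13 cases and 1 was higher with the replicate block. The complement receptor Vsig4 had -2.64, -2.60 and -3.51 in CD157+CD200+ and -0.70, -0.91 and -0.91 in CD157-CD200-, and the complement subunit C1qa (-1.91 ± 0.40; measured on 2 of 3 CD157+CD200+ arrays) and Cd5l (-2.33 ± 0.38) were lower, whereas Adgre1 (-0.20 ± 0.34, adjusted p = 0.81) and Csf1r (-0.09 ± 0.19, adjusted p = 0.85) did not pass; Timd4 and Cd163 were at background on all arrays. Erythroid markers summed to 1.48 to 1.99 against 13 to 23.9, with Hba-a1 (-3.69 ± 0.33) lower and Klf1 at background at both ends. Stellate cell markers summed to 57.3 to 62.8 against 7.46 to 11.8. The receptor Pdgfrb (4.79 ± 0.75, measured on 2 of 3 CD157-CD200- arrays) was higher. The retinol acyltransferase Lrat (-3.05 ± 0.51, measured on 1 of 3 CD157+CD200+ arrays) and Hgf were lower, and Reln and Hand2 were at background. With the replicate block 6 stellate markers were higher. Fibroblast and smooth muscle markers were higher in 4 of 12 cases, their sum was 43.8 to 59.4 against 10.7 to 12.5, and Gpm6a (5.47 ± 0.32), Rgs5 (3.84 ± 0.27) and Mylk (2.28 ± 0.19) were among them. The fibrillar collagen gene Col3a1 (1.79 ± 0.42) was the fourth, a call lost without CD157+CD200+ replicate 1 or 3 or CD157-CD200- replicate 2. The contractile genes Acta2 (0.22 ± 0.27, adjusted p = 0.71) and Tagln (0.42 ± 0.21, adjusted p = 0.26) and the collagen gene Col1a1 did not pass, and Pdgfra, Dpt and Wt1 were at background. None of 13 cholangiocyte markers was called (sum 11.7 to 15.5 against 7.76 to 11.1), with Krt19 (0.59 ± 0.28, adjusted p = 0.21, called without CD157-CD200- replicate 2), and 1 was called with the replicate block or without CD157-CD200- replicate 2. None of 5 lymphocyte markers was called (sum 6.4 to 6.9 against 6.75 to 8.13), 1 was lower with the replicate block or quantile normalization, and Cd3d, Cd8a, Ms4a1 and Ncr1 were at background. Of 5 granulocyte and platelet markers (sum 1.22 to 2.01 against 1.6 to 2.83) Pf4 was lower, and the call of S100a9 (1.81 ± 0.45) was lost without CD157+CD200+ replicate 1 or CD157-CD200- replicate 1 or 2, or with no filter on dim probes. The part of these cells in the differences of the lists above was not tested.

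**Figure D5:**
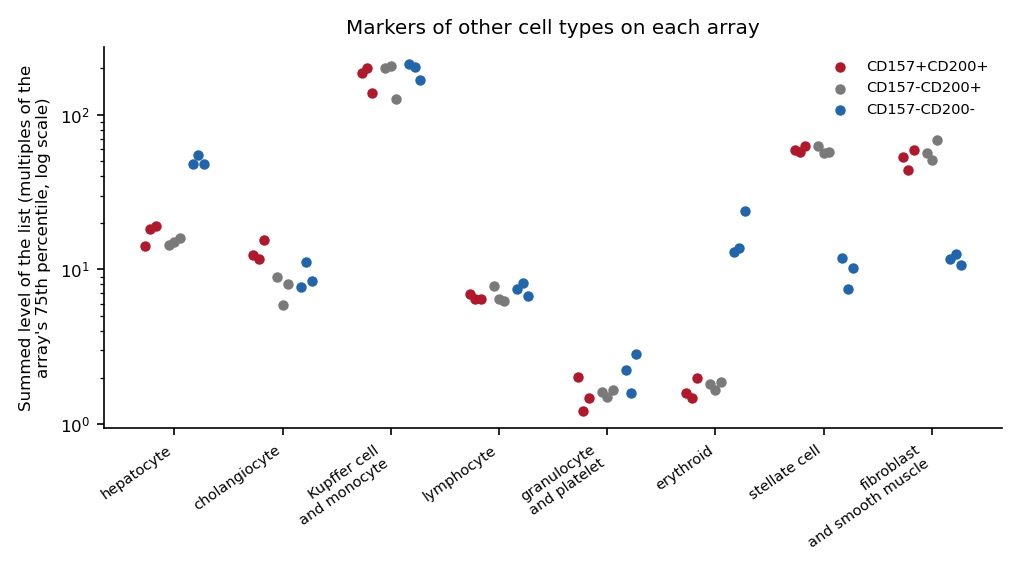
Summed level of the markers of 8 other cell types on each array, on a log scale, in multiples of the 75th percentile of the array. Each point is an array. Hepatocyte (47.6 to 54.5) and erythroid (13 to 23.9) sums are highest in CD157-CD200-, and stellate cell and fibroblast sums are lower there than in both CD200-positive subsets.

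The subset with CD200 alone shows how the main genes behave in between. Cd200 stood at 3.41, 3.29 and 3.40 on the CD157-CD200+ arrays and Vwf at 8.01, 8.02 and 8.10, and Stab2 stood at -0.26, 0.01 and -0.19. Against CD157+CD200+, neither Vwf (-0.10 ± 0.27, adjusted p = 1.000) nor Stab2 (-0.23 ± 0.19, adjusted p = 0.94) passed the test. Bst1 stood at -2.65, -2.14 and -2.45; CD157+CD200+ exceeded it by 4.98 ± 0.25, adjusted p = 0.00011. Il6 stood at -0.81, 0.00 and -0.53, below all CD157+CD200+ arrays (3.86 ± 0.25, adjusted p = 0.00049) and above all CD157-CD200- arrays (3.70 ± 0.25, adjusted p = 9.4e-06). Sele stood at -0.75, 0.48 and -0.19 and was lower than in CD157+CD200+ (2.33 ± 0.35, adjusted p = 0.014). Nts stood at 1.55, 0.78 and 1.84, with CD157+CD200+ above it by 0.17 ± 0.67, adjusted p = 1.000. Wnt9b stood at 5.21, 5.34 and 4.95 and Rspo3 at 5.59, 5.53 and 5.39. These contrasts share arrays with the comparison of the ends.

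The separate EC-SP and EC-MP arrays were read with version 10.10.1.1 of the image software, against 11.5.1.1 for the subsets. On them, EC-SP minus EC-MP gave 4.34 ± 0.24 for Bst1, 3.39 ± 0.26 for Cd200, -5.38 ± 0.35 for Stab2 and 6.57 ± 0.42 for Il6, beside 5.73 ± 0.25, at least 8.32 (320-fold), -7.07 ± 0.19 and 7.56 ± 0.25 here. For Vwf the values were 0.20 ± 0.35 beside 7.86 ± 0.27, for Wnt9b -3.26 ± 0.34 beside 3.78 ± 0.25, for Nts -2.18 ± 0.39 beside 6.55 ± 0.67, and for Entpd1 0.40 ± 0.27 beside 5.76 ± 0.25; the difference between the sorts was not tested.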

How the data were processed

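Total RNA of sorted liver endothelium was extracted, amplified, labelled with Cy3 and hybridised to 1-colour Agilent arrays, per the labels' protocols; the amplification precedes every value, and its part in the differences was not tested. The deposited scanner files hold spot intensity on a linear scale, background-subtracted by Agilent Feature Extraction, version 11.5.1.1 for the subsets per the file headers. The authors' series table holds the same intensity times 1 constant per array, linear and uncentred, and the sources used here do not state what the constant rests on. The median of its column was 255.8, 278.4 and 252.3 on the CD157+CD200+ arrays. On the CD157-CD200+ arrays it was 265.0, 293.0 and 262.8. On the CD157-CD200- arrays it was 218.3, 296.6 and 238.5.

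Control spots were left out and spots marked as non-uniform or deviating (133 to 213 of 59305 per array) were set to missing; no spot was saturated. Each value was log2 of the processed signal minus log2 of the array's 75th percentile, with spots of a probe averaged. Of 55681 probes 28059 were named through RefSeq accessions and the annotation in the files. The filter kept 33835 probes that every array of some subset showed well above background, and the probe with the highest mean over all 15 arrays stood for its gene, which left 23701 features. Of the 691 called genes with several tested probes, 21 had probes that disagreed in sign. In 5 features an array was missing from the fit.

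The 9 subset arrays were fitted under R 4.3.3 by the lmFit and eBayes functions of limma 3.58.1 (two-sided, Benjamini-Hochberg over all features), so that CD157-CD200+ arrays enter the estimate of spread. The fit was tested on simulated data. Same-numbered arrays of the subsets share a slide and a scan, per the file headers, and after removal of group means they correlated at r = 0.269 to 0.628 (9 pairs), against -0.489 to 0.034 for different numbers (18 pairs), so the replicate number pairs the arrays. The EC-SP and EC-MP arrays were fitted apart. Genes named are the sort antigens, Vwf, Stab2, Pecam1, Cdh5 and Ptprc, the 15 called genes with the largest difference in each direction that moved alike in all 3 pairs, and of each of 54 lists up to 5 called members per direction with the lowest adjusted p and its first 3 members where they did not pass; other genes named as examples were chosen after their values were seen. Some genes that this rule names are not reported here. The members and lists were chosen with earlier results of these data known. Gene lists received counts and medians and no test. Python 3.11.15 with pandas 2.3.3, numpy 2.4.6 and matplotlib 3.10.9 read the files and drew the plots. Start-site windows came from RefSeq (GRCm38.p6). Alternatives changed the block, the arrays in the fit, the background correction, the normalization, the source of values, the filter on dim probes, the probe of a gene and the variance prior, and left out each array in turn.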

Additional observations from a re-analysis of the deposited data

How the results depend on the processing

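With the replicate number, which is also the slide and scan, as a block, 6938 features were called, 3649 higher and 3289 lower. Of the 3601 features called without it, 3589 were called with it. Leaving out each of the 6 arrays in turn, with a group of 2 sharing the spread of the others, gave 2647 to 3351 calls, 1478 to 1849 higher and 1169 to 1502 lower. The other alternatives gave 2782 calls (no filter on dim probes) to 3939 (a trended and robust prior), and the share higher among calls ran from 48.1% with only probes well above background on all 6 arrays to 55.8% without CD157+CD200+ replicate 1, against 53.2%. Of the 387 genes that the rule names, none that was called changed sign under these alternatives. Of the 387, 1 lost its call and 15 gained one with the block, 30 lost it with no filter on dim probes, and 14 to 34 lost it with an array left out. The series table, quantile normalization and normexp (on the median signal, with an offset of 50) gave 3598, 3635 and 3630 calls. Values near the lowest signal called well above background have only a bound, 3 arrays per group limit the precision, and markers of other liver cells moved with the comparison as given above.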

Other observations

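Genes outside the lists, chosen after their values were seen among the largest differences measured on all 6 arrays, add further kinds of proteins to each end. In the direction of CD157+CD200+, the matrix protein gene Vwa1 had levels of 3.21, 3.44 and 3.56 in CD157+CD200+ and -2.98, -3.34 and -2.64 in CD157-CD200-, the sulfatase Sulf1, which trims heparan sulfate, had 3.83, 3.66 and 3.72 in CD157+CD200+ and -1.66, -1.82 and -1.61 in CD157-CD200-, and spondin 1, Spon1 (5.15 ± 0.17), and thrombospondin 1, Thbs1 (4.89 ± 0.38), were higher. The desert hedgehog gene Dhh had 2.86, 2.35 and 2.79 in CD157+CD200+ and -3.16, -2.85 and -2.01 in CD157-CD200-, and the receptor of glucagon-like peptide 1, Glp1r, had 3.23, 2.88 and 2.69 in CD157+CD200+ and -0.70, -0.91 and -1.04 in CD157-CD200-. In EC-SP minus EC-MP the values were 4.37 ± 0.24 for Vwa1, -0.02 ± 0.34 for Dhh and -2.44 ± 0.31 for Glp1r; the difference between the sorts was not tested. The flavin monooxygenase Fmo2 (6.10 ± 0.26) and the chloride channel protein gene Clic5 (6.04 ± 0.28) were also higher.

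Towards CD157-CD200-, the endosomal sodium-proton exchanger Slc9a9 had -2.63, -3.55 and -3.00 in CD157+CD200+ and 1.70, 1.83 and 1.84 in CD157-CD200-, the sialic acid lyase Npl had -3.19, -3.00 and -2.88 in CD157+CD200+ and 1.67, 1.02 and 1.58 in CD157-CD200-, and the voltage-gated proton channel Hvcn1 had -1.28, -0.75 and -1.83 in CD157+CD200+ and 2.33, 2.28 and 1.87 in CD157-CD200-. The prostaglandin-degrading enzyme Hpgd (-3.23 ± 0.21), the second receptor of complement C5a C5ar2 (-3.12 ± 0.18), the glypican Gpc1 (-4.43 ± 0.38), the arrestin Arrb2 (-3.74 ± 0.19) and the monooxygenase Cyp4b1 (-3.65 ± 0.16) were lower in CD157+CD200+. The adjusted p of the 16 genes of both paragraphs lay between 1.4e-07 and 4.3e-05.

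Of 3550 features named by a genomic region 146 were called higher (4.11%) and 157 lower (4.42%), against 10.2% and 8.95% of the 14363 features with a gene symbol.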
